A study of Mus musculus with 6 samples.

Results

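The genes described here are the translation initiation factors of the eIF families, the protein kinases that act on eIF2 and the proteins that bind eIF4E. They were taken as all gene symbols in the count tables that begin with EIF and a digit, and 54 of 17144 listed symbols matched. One of them, EIF1AY, lies on the Y chromosome, and its values are not given, so counts below are over the other 53. All 53 passed the filter on low counts, with at least 46 counts in every library. RNA-seq was done on 6 libraries of cells labelled SaOS2, a human osteosarcoma line, in groups C and D with 3 libraries each. A compound, DDTC(I), is named in the title of the series, but no label says what C and D stand for, gives a dose or a time, or says whether the libraries of a group were separate cultures. Differences are therefore given as D minus C, and a p-value reflects spread among these libraries alone, which may be technical. In bulk RNA, fewer cells of a kind and less RNA per cell cannot be told apart.

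Initiation begins when eIF2, bound to GTP, carries the initiator tRNA to the small ribosomal subunit together with eIF1, eIF1A, eIF3 and eIF5. The eIF4 proteins bind the cap of the messenger RNA and unwind its leader, and after start codon recognition eIF5 prompts eIF2 to hydrolyse its GTP. eIF2B reloads eIF2 with GTP, and stress kinases block that step by phosphorylating the alpha subunit of eIF2, which lowers general protein synthesis while a few messages such as ATF4 are translated better. Binding proteins of eIF4E, controlled by the kinase complex mTORC1, are the other main brake.

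Each library held between 18446443 and 20602771 counts, of which the members made up 1.31% to 1.38% in C and 1.5% to 1.68% in D. Libraries of D varied more than those of C: the biological coefficient of variation (spread beyond counting noise) was 0.0752 in C and 0.189 in D. Relative to the C mean, the log2 level changed by −0.132, 0.026 and −0.327 per doubling of gene length in D replicates 1, 2 and 3, so values with each library's length trend removed are given where they matter. Of 10 markers of the osteoblast line, 5 exceeded 10 counts in all 6 libraries, and the list's summed level ranged from 2002 to 2359 CPM in C and from 718 to 807 in D. Most of that sum was SPARC (1913 ± 162 CPM in C and 681 ± 45.2 in D, SD, n = 3), and SPP1 of the same list went the other way, from 0.341 ± 0.219 to 2.38 ± 0.659 CPM. ALPL, a defining marker, had 8 to 15 counts per library, and SP7, IBSP and BGLAP had 0 to 2, which goes against the SaOS2 label. The summed level of 6 epithelial markers ranged from 80.3 to 89.8 CPM in C and from 124 to 159 in D, and that of 4 endothelial markers from 18.1 to 23.3 and from 12.1 to 14.0. For 6 hematopoietic markers the ranges, 17.1 to 18.4 and 15.8 to 18.9, overlapped. Of 3 markers of muscle and fat, DES held nearly the whole sum (7.02 ± 0.205 CPM in C and 2.33 ± 0.698 in D), and MYOD1 and ADIPOQ were at 0 in most libraries. KRT8 and KRT18 held most of the epithelial sum, PECAM1 most of the endothelial and CSF1R most of the hematopoietic one, and the epithelial marker EPCAM was near 0 in both groups. KRT8 overlapped between groups (43.9 ± 3.26 CPM in C and 42.2 ± 5.22 in D), whereas KRT18 rose (38.4 ± 2.65 and 71.4 ± 12.7). ESRP1 rose from 1.35 ± 0.0705 to 22.6 ± 2.14 CPM and CDH1 from 0.451 ± 0.0762 to 1.65 ± 0.588. Among endothelial markers, CDH5 fell from 4.24 ± 0.522 to 0.551 ± 0.064 CPM and PECAM1 from 15.4 ± 3.12 to 11.4 ± 0.941, and VWF overlapped. The PECAM1 fall was near the threshold (adjusted p = 0.049, quasi-likelihood test of edgeR). Its call was lost in most alternatives, such as DESeq2, RLE factors and removal of length trends. It was also lost without C replicate 1, C replicate 2, D replicate 1 or D replicate 2. The part of these differences in the results was not tested. CPM here means counts scaled to a common library total, with TMM factors that adjust for a few highly changed genes.

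Of the 53 members, 26 rose in D, 6 fell and 21 did not pass the test, which does not show that their levels were equal. The shares that rose and fell were 49.1% and 11.3% of the members, beside 26.8% and 27.7% of the 12682 genes tested. The shares of all tested genes are also the background for the counts in each complex below. The median log2 fold change was 0.33 for the members and −0.02 for all tested genes. At least a 2-fold rise was called for 4 members, EIF5, EIF1, EIF3J and EIF6, and 0 members had a called fall of that size. Among all 12682 genes tested, 1062 had a called rise and 1284 a called fall of at least 2-fold. The members' share of such rises was therefore no larger than that of all genes, and their share of such falls was smaller. EIF6 was close to the 2-fold limit (log2 fold change 1.007) and was below it with length trends removed (0.81) and with library size only (0.85). All 3 D libraries lay above all 3 C libraries for 32 members and below them for 9, against 30.6% and 32.1% of all tested genes. With library size as the only scaling, which moves the median of all genes to −0.17, the members had 21 rises and 9 falls, beside 20.4% and 35.1% of all genes. With length trends removed 31 rose and 8 fell, beside 32.9% and 30.4%. Of the 32 called members, 25 were called in the same direction in all 13 alternative analyses, 20 of them higher and 5 lower.

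**Figure D1:**
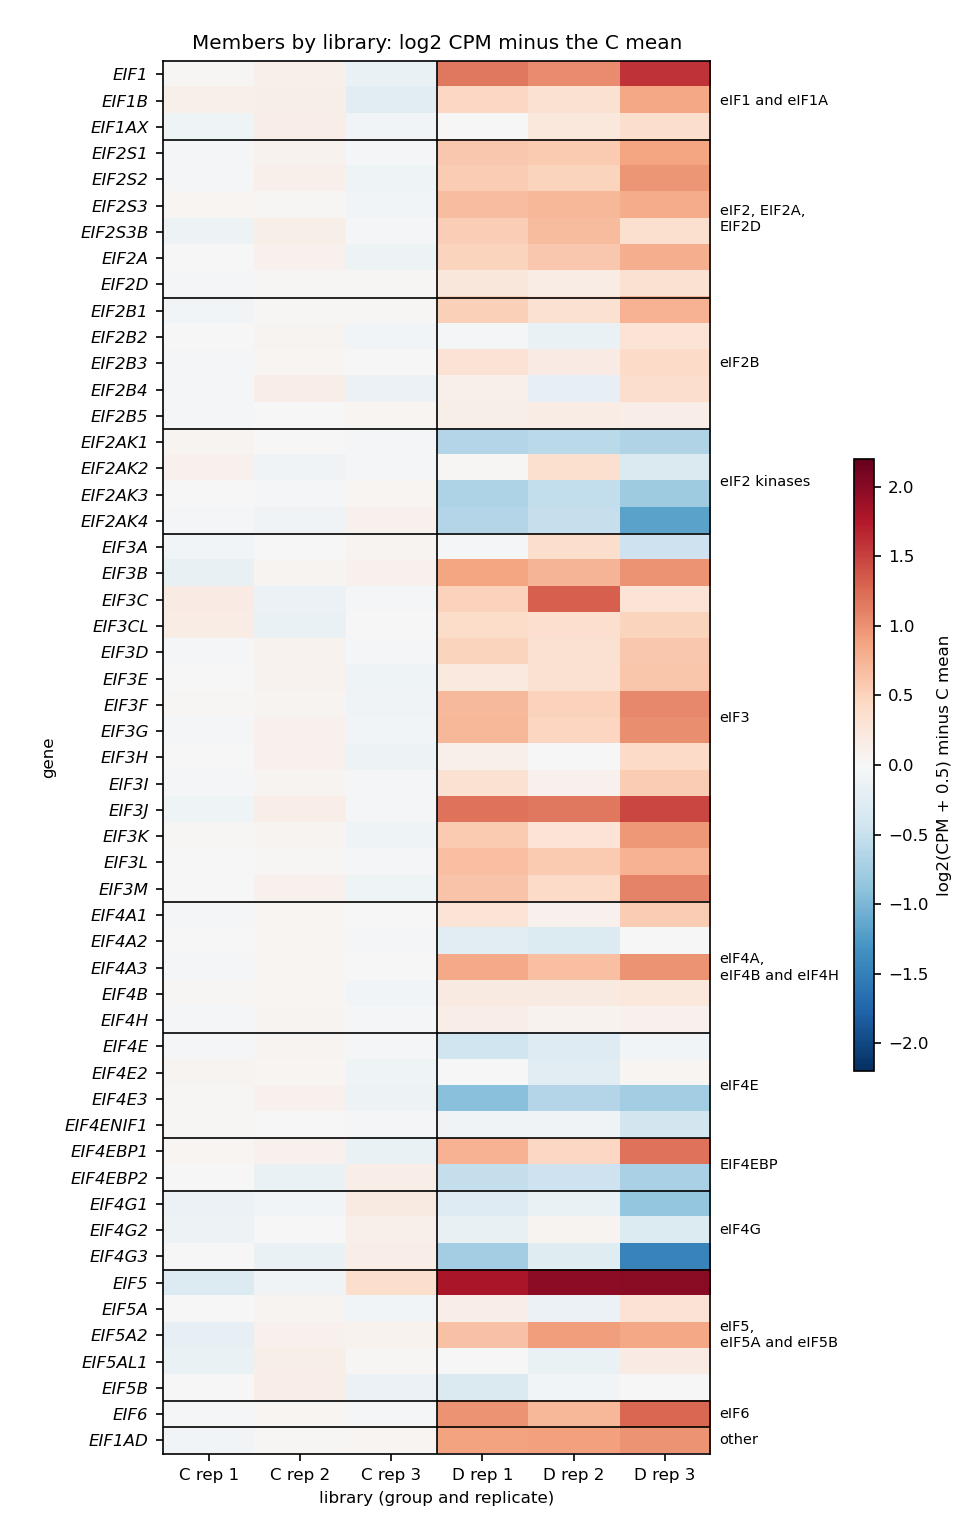
Level of each of 53 members (rows, grouped by complex) in each of the 6 libraries (columns), as log2(CPM + 0.5) minus the mean of the C libraries; red is higher and blue is lower. The eIF2 and eIF3 blocks are mostly red in the 3 D libraries, 3 of the 4 eIF2 kinase rows are blue in all of them, and EIF5 is the darkest row.

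The gene of the eIF2 GTPase activator EIF5 had the largest rise of any member. EIF5 had 107, 125 and 172 CPM in C and 461, 516 and 527 in D replicates 1 to 3, the order used for all triplets of values. The D libraries lay close together and all lay above the C libraries, of which C replicate 3 was the highest. This was a 3.72-fold rise, with a log2 fold change of 1.89 ± 0.17 (SE; adjusted p = 6.7e-05, quasi-likelihood test of edgeR, adjusted by Benjamini-Hochberg over all 12682 genes), and it was 2.04 with length trends removed. EIF1, which holds the scanning ribosome open and opposes EIF5 in start codon choice, had 442, 471 and 393 CPM in C and 973, 894 and 1306 in D. Its groups were far apart, with D replicate 3 the highest library, and the log2 fold change was 1.28 ± 0.16 (adjusted p = 0.00025). EIF1B, a paralog encoding a nearly identical protein, had 52, 52.4 and 40.9 CPM in C and 66.2, 61 and 87.2 in D. It rose by 0.56 ± 0.16 on the log2 scale (adjusted p = 0.017), and without C replicate 3 its call was lost (0.45, adjusted p = 0.073). With length trends removed its value was 0.34. EIF1AX, the X-linked eIF1A gene, had 38.5, 45.8 and 39.3 CPM in C and 41.2, 48.3 and 53.8 in D. Its groups overlapped and it did not pass (0.21 ± 0.13, adjusted p = 0.2). The Y-linked copy is closely similar, so the division of reads between the copies is uncertain. In the eIF1 and eIF1A group 2 of 3 genes rose and 0 fell.

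Genes of all 3 eIF2 subunits rose. EIF2S1, the alpha subunit that carries the site of the stress kinases, had 96, 103 and 94.4 CPM in C and 148, 146 and 179 in D. Its log2 fold change was 0.69 ± 0.11 (adjusted p = 0.0011), and the groups did not overlap. The beta subunit gene EIF2S2 had 279, 307 and 266 CPM in C and 419, 398 and 558 in D, with a log2 fold change of 0.69 ± 0.14 (adjusted p = 0.0039). For the gamma subunit gene EIF2S3, which binds GTP and the initiator tRNA, the values were 163, 160.5 and 152 CPM in C and 254, 264 and 280.0 in D. It had the smallest standard error of the 3, with 0.75 ± 0.09 (adjusted p = 0.00028). EIF2S3B, an autosomal near-copy of EIF2S3 that can share its reads, was low (4.87 ± 0.457 CPM in C and 7.25 ± 0.935 in D, SD, n = 3). It was called at 0.57 ± 0.15 (adjusted p = 0.013), and the call was lost without C replicate 1 (0.51, adjusted p = 0.060) and with library size only (0.42).

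Among proteins that bring tRNA to the ribosome without eIF2, EIF2A had 106, 112 and 96.8 CPM in C and 147, 158 and 183 in D. All D values were above all C values, and the log2 fold change was 0.63 ± 0.12 (adjusted p = 0.0021). EIF2D had 80.9, 85.5 and 84.9 CPM in C and 99.4, 94 and 106 in D, again without overlap but with a smaller difference, 0.25 ± 0.10, that did not pass (adjusted p = 0.054). It passed without D replicate 2 (0.33, adjusted p = 0.016), with length trends removed (0.35), with DESeq2 (0.28), with RLE factors (0.28) and with a filter of at least 1 CPM in 3 libraries (0.25). In this group of 6 genes 5 rose and 0 fell, with a median of 0.66.

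Of the 5 subunit genes of eIF2B, the exchange factor that reloads eIF2, 2 rose, 0 fell and 3 did not pass, with a median of 0.15. EIF2B1, the alpha subunit, which belongs to the regulatory part, had 61.9, 65.9 and 65.8 CPM in C and 93, 82 and 109 in D. It rose by 0.55 ± 0.12 on the log2 scale (adjusted p = 0.0053). EIF2B3, the gamma subunit of the catalytic part, had 34.9, 37.3 and 35.9 CPM in C and 45.2, 40.7 and 48.7 in D, and its groups did not overlap. Its log2 fold change of 0.32 ± 0.11 was near the threshold (adjusted p = 0.038). That call was lost without C replicate 1, C replicate 2, C replicate 3 or D replicate 1 (0.29 to 0.34, adjusted p from 0.097 to 0.13) and with library size only (0.16). The catalytic subunit gene EIF2B5 (log2 fold change 0.15 ± 0.09) and the regulatory subunit genes EIF2B4 (0.12 ± 0.16) and EIF2B2 (0.05 ± 0.13) did not pass, and the values of these 3 were below 0 with library size only. No test of eIF2 against eIF2B was made.

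Of the 4 eIF2 kinase genes 3 fell and 0 rose, beside 27.7% and 26.8% of all genes tested. EIF2AK1 encodes HRI, a kinase that responds to heme shortage and to mitochondrial stress, and it had 283, 269 and 263 CPM in C and 174, 180.3 and 172 in D. Both groups were tight and well apart, and the log2 fold change was −0.63 ± 0.09 (adjusted p = 0.00058). EIF2AK3, the gene of the endoplasmic reticulum stress kinase PERK, had 35.5, 34.3 and 36.2 CPM in C and 21.9, 24 and 20.3 in D. It also fell (−0.68 ± 0.11, adjusted p = 0.0012). EIF2AK4, which encodes GCN2, the sensor of uncharged tRNA, had 179, 174 and 196 CPM in C and 116, 129 and 80.5 in D. D replicate 3 was the lowest library, and the log2 fold change was −0.75 ± 0.17 (adjusted p = 0.0052), against −0.57 without that library. These 3 falls were called in all 13 alternatives and were −0.56, −0.61 and −0.66 for EIF2AK1, EIF2AK3 and EIF2AK4 with length trends removed.

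The fourth kinase gene, EIF2AK2, which encodes the double-stranded RNA sensor PKR, had 85.9, 75.8 and 78.7 CPM in C and 81.9, 102 and 63.8 in D. Its C libraries lay inside the range of its D libraries, and the log2 fold change was 0.04 ± 0.16 (adjusted p = 0.84). It is the longest of the kinase genes in these files, at 9972 bp, and it was called higher with length trends removed (0.27, adjusted p = 0.013), whereas without D replicate 2 the value was −0.10. Per unit length, EIF2AK1 was the most abundant kinase gene (62.4 ± 2.23 FPKM in C and 36.3 ± 1.96 in D, SD, n = 3), followed by EIF2AK4 (34.8 ± 2.30 FPKM in C and 18.7 ± 4.82 in D). EIF2AK2 (8.47 ± 0.556 FPKM in C and 7.88 ± 2.03 in D) and EIF2AK3 (7.88 ± 0.255 FPKM in C and 4.44 ± 0.508 in D) were the lowest, and in C these levels differed by little more than the SD of EIF2AK2. FPKM values are the authors' own, divided by gene length and library total without further scaling.

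**Figure D2:**
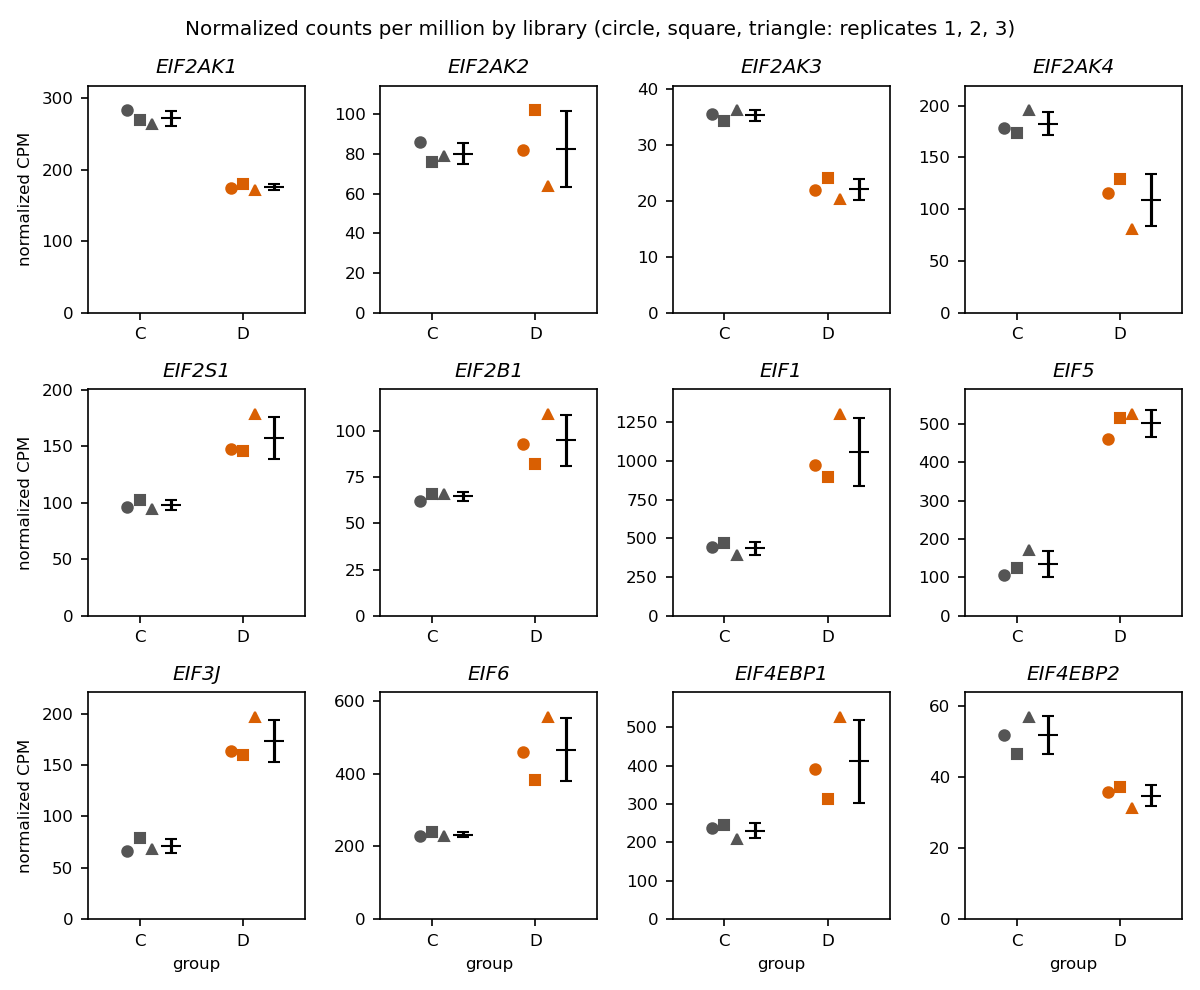
Normalized CPM (vertical axes, from 0) of 12 members in each library of C (grey) and D (orange); symbols stand for replicate numbers and bars are the mean ± SD of 3 libraries. EIF2AK1, EIF2AK3, EIF2AK4 and EIF4EBP2 are lower in all 3 D libraries, EIF2AK2 overlaps, and the other 7 are higher in all 3 D libraries.

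The kinase genes can be set beside the rest of the pathway that acts on eIF2. In a list of 16 genes for activators of the kinases, subunits of the eIF2 phosphatase and the response genes ATF4 and DDIT3, 7 rose and 3 fell. These are shares of 43.8% and 18.8%, beside 26.8% and 27.7% of all genes tested, and the median log2 fold change was 0.27. The list was written with earlier results of these data known. PPP1R15A, the inducible subunit that directs the phosphatase to eIF2, rose 13.7-fold, and ATF4 rose 2.37-fold. PRKRA, an activator of PKR, had 32.5, 33.7 and 28.7 CPM in C and 21.6, 21.5 and 23.1 in D and fell (−0.52 ± 0.11, adjusted p = 0.0049). NCK1, an adaptor protein, had 27, 28.4 and 23.6 CPM in C and 17.7, 19.3 and 18.6 in D and also fell (−0.51 ± 0.12, adjusted p = 0.0064). Other genes of these kinds rose: the paralog NCK2 (0.455 ± 0.10, adjusted p = 0.0048) and the kinase activator gene DELE1 (0.81 ± 0.10, adjusted p = 0.00022).

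Subunit genes of eIF3, the large scaffold that holds the small ribosomal subunit and the messenger RNA together, mostly rose. Of 14 listed genes, 11 rose, 0 fell and 3 did not pass, with a median of 0.65 and a range from 0.01 to 1.28. Library size as the only scaling left 8 rises and 0 falls, and with length trends removed 12 rose and 0 fell (median 0.495). EIF3J, a loosely attached subunit that takes part in recruitment and release of the small subunit, had 66.1, 78.9 and 68.5 CPM in C and 163, 159.8 and 197 in D. Its groups were far apart, and the log2 fold change was 1.28 ± 0.12 (adjusted p = 8.0e-05), the largest in the complex. EIF3B, a core scaffold subunit, had 295, 345 and 350.2 CPM in C and 604, 556 and 649.5 in D, with a log2 fold change of 0.87 ± 0.11 (adjusted p = 0.00036). EIF3L had 538, 552 and 531 CPM in C and 855, 807 and 924 in D and a log2 fold change of 0.67 ± 0.10 (adjusted p = 0.00069). In these 2 genes the D libraries also all lay above the C libraries.

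EIF3F (0.78), EIF3G (0.76), EIF3M (0.75), EIF3K (0.63) and EIF3D (0.48) rose with standard errors between 0.11 and 0.17, and each kept its call in all 13 alternatives. EIF3K, the shortest member at 762 bp, was at 0.35 with length trends removed. EIF3E was called at 0.39 ± 0.13 (adjusted p = 0.027), a call that did not hold without C replicate 1 (0.39), C replicate 2 (0.43) or C replicate 3 (0.35), or with library size only (0.24). It also did not hold with the replicate number as a block (0.385, adjusted p = 0.097). EIF3I (0.34 ± 0.13, adjusted p = 0.052) and EIF3H (0.18 ± 0.13, adjusted p = 0.27) did not pass, although EIF3I passed without D replicate 2 (0.48, adjusted p = 0.0047), with length trends removed (0.23), with DESeq2 (0.37) and with RLE factors (0.37). EIF3A encodes the largest subunit of the complex and had 207, 214 and 223 CPM in C and 211, 279.8 and 156 in D. Its D libraries spread on both sides of C, with D replicate 2 the highest and D replicate 3 the lowest, and the log2 fold change was 0.01 ± 0.19 (adjusted p = 0.98). EIF3A is 6659 bp long in these files and its value was 0.14 with length trends removed.

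EIF3C and EIF3CL are near-identical copies, so the division of reads between them is uncertain and reads that match both may be missing. EIF3C had 19.4, 15.7 and 16.6 CPM in C and 24.5, 43.3 and 21.2 in D, with D replicate 2 far above the other 2 D libraries, and EIF3CL had 9.99, 8.0 and 8.86 CPM in C and 12, 11.7 and 12.8 in D. Both were called higher (0.79 ± 0.25, adjusted p = 0.027, and 0.44 ± 0.13, adjusted p = 0.018). The EIF3C call was lost without C replicate 1 (0.87), C replicate 2 (0.72) or C replicate 3 (0.76) and with library size only (0.64), and the value was 0.44, still called, without D replicate 2. The EIF3CL call was lost without C replicate 2 (0.37) or C replicate 3 (0.43) and with library size only (0.29). Per unit length the other 12 subunits spanned from 28.1 to 370 FPKM in C replicate 1, with a median of 168, whereas EIF3C averaged 5.51 and EIF3CL 2.88 FPKM in C. EIF3J was the lowest of the 12 in all 3 C libraries, and EIF3A was the lowest in all 3 D libraries. The highest was EIF3D in 5 libraries and EIF3K in D replicate 3.

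**Figure D3:**
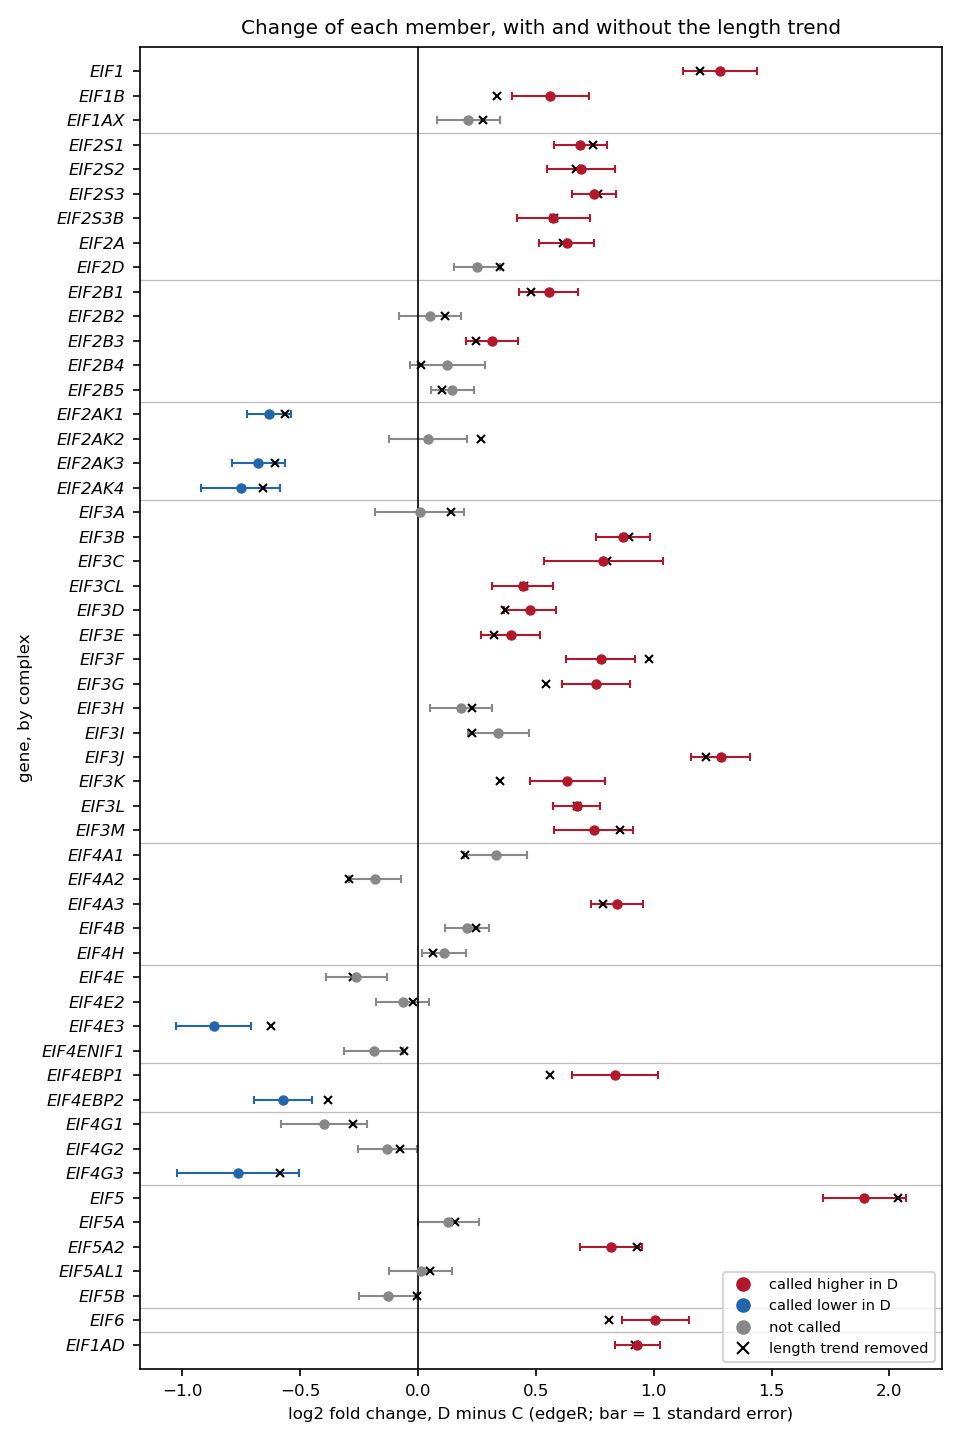
Log2 fold change of D minus C for 53 members (rows, by complex; circles, bars of 1 standard error, edgeR), with the value after removal of length trends (crosses). Red and blue mark the 26 called higher and the 6 called lower; EIF5 lies at 1.89 and EIF4E3 at −0.87, the ends of the range.

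Of 5 genes of eIF4A, the helicase that unwinds the leader, and its cofactors, 1 rose and 0 fell. That gene was EIF4A3, whose protein is a core of the exon junction complex rather than of the cap complex. It had 106, 109.8 and 106 CPM in C and 192, 171 and 214 in D and a log2 fold change of 0.84 ± 0.11 (adjusted p = 0.00034). EIF4A1, the main helicase and the most abundant member per length (829 ± 25.7 FPKM in C and 934 ± 121 in D), had 1342, 1432 and 1374 CPM in C and 1694, 1481 and 2038 in D. The D libraries all lay above C, but D replicate 2 was close to it, and the difference did not pass (0.33 ± 0.13, adjusted p = 0.066), whereas it passed without D replicate 2 (0.47, adjusted p = 0.0079), with DESeq2 (0.36) and with length trends removed (0.20). The paralog EIF4A2 had 370.3, 383 and 359 CPM in C and 311, 299 and 370.4 in D. D replicate 3 lay within the range of C, and the log2 fold change was −0.18 ± 0.11 (adjusted p = 0.2). It was called lower without D replicate 3 (−0.27, adjusted p = 0.027), with library size only (−0.34) and with length trends removed (−0.29). The helicase cofactors EIF4B (0.21 ± 0.10, adjusted p = 0.094) and EIF4H (0.11 ± 0.09, adjusted p = 0.34) did not pass, although EIF4B passed with DESeq2 (0.24) and with length trends removed (0.25). With length trends removed 3 of these 5 genes were called higher and 1 lower, and with library size only 1 higher and 1 lower.

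In the cap-binding group 1 of 4 genes fell, EIF4E3, a weakly expressed relative of eIF4E, and 0 rose. EIF4E3 had 5.43, 5.73 and 4.88 CPM in C and 2.60, 3.23 and 2.95 in D, with as few as 46 counts in a library. The groups were apart, and the log2 fold change was −0.87 ± 0.16 (adjusted p = 0.002). EIF4E, the cap-binding protein itself, had 31.4, 33.6 and 31.7 CPM in C and 23.6, 26.3 and 30.9 in D. All D values were below all C values, with D replicate 3 close to C, and the difference did not pass (−0.26 ± 0.13, adjusted p = 0.11). It passed without D replicate 3 (−0.36, adjusted p = 0.014), with library size only (−0.42) and with length trends removed (−0.28). Under each of these settings 2 genes of the group were called lower. EIF4E2, a cap-binding repressor (−0.07 ± 0.11, adjusted p = 0.65), and EIF4ENIF1, a transporter of eIF4E (−0.19 ± 0.12, adjusted p = 0.23), did not pass.

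The genes of the eIF4E-binding proteins went opposite ways. EIF4EBP1, which sequesters eIF4E when mTORC1 is inactive, had 238, 245 and 208 CPM in C and 392, 314 and 528 in D. D replicate 3 was the highest and D replicate 2 the lowest of D, and all 3 were above C. The rise was 1.78-fold, with a log2 fold change of 0.84 ± 0.18 (adjusted p = 0.0046). EIF4EBP2, which acts in the same way, had 52, 46.4 and 57.1 CPM in C and 35.8, 37.3 and 31.4 in D. Its log2 fold change was −0.57 ± 0.12 (adjusted p = 0.0044), again without overlap. Their lengths in the files are 827 and 7491 bp, far apart, and with length trends removed both calls held at smaller sizes, 0.56 for EIF4EBP1 and −0.38 for EIF4EBP2. Per unit length EIF4EBP1 stood far above its paralog (294 ± 23.7 FPKM in C and 469 ± 108 in D, against 7.29 ± 0.777 FPKM in C and 4.42 ± 0.522 in D for EIF4EBP2).

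The genes of the eIF4G scaffolds, which bridge the cap complex and eIF3, had no rise. EIF4G3 fell, and EIF4G1 and EIF4G2 did not pass. EIF4G3 had 128, 115 and 141 CPM in C and 74.7, 105 and 45.5 in D, a wide range in D in which D replicate 3 was lowest. Its log2 fold change of −0.77 ± 0.26 (adjusted p = 0.033) lost its call without C replicate 1 (−0.77), C replicate 3 (−0.69) or D replicate 1 (−0.76), and was −0.50 without D replicate 3. EIF4G1, the main scaffold, had 616, 641 and 767 CPM in C and 555, 606 and 373 in D. All D values lay below C, and the log2 fold change was −0.40 ± 0.18 (adjusted p = 0.094), called lower without D replicate 2 (−0.51, adjusted p = 0.035) and with library size only (−0.55). EIF4G2, also known as DAP5, which lacks the site for eIF4E, had 932, 1006 and 1083 CPM in C and 897, 1044 and 819 in D. Its groups overlapped (−0.13 ± 0.12, adjusted p = 0.4). The genes are 6181, 4250 and 8593 bp long for EIF4G1, EIF4G2 and EIF4G3, and with length trends removed the values were −0.28, −0.08 and −0.59.

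Beside EIF5, the eIF5 group holds proteins with other roles, and 2 of its 5 genes rose and 0 fell. EIF5A2, a paralog of the elongation factor EIF5A, had 13.4, 16.3 and 16.2 CPM in C and 24, 29.1 and 27.8 in D. Its log2 fold change was 0.82 ± 0.13 (adjusted p = 0.001). EIF5A, which carries the amino acid hypusine and helps ribosomes past difficult peptide bonds, was much more abundant, with 725, 756 and 698 CPM in C and 807, 666 and 908 in D. D replicate 2 was the lowest of all 6 libraries, and it did not pass (0.13 ± 0.13, adjusted p = 0.43), except without D replicate 2 (0.27, adjusted p = 0.049). EIF5AL1, a near-copy of EIF5A that can share its reads (0.01 ± 0.13, adjusted p = 0.95), and EIF5B, the GTPase that joins the ribosomal subunits (−0.13 ± 0.12, adjusted p = 0.4), did not pass either. EIF6, which keeps the large subunit from joining early and takes part in its assembly, had 229.5, 239.5 and 228 CPM in C and 460.4, 384 and 558 in D. It rose 2.01-fold, with a log2 fold change of 1.01 ± 0.14 (adjusted p = 0.00048), and by 0.81 with length trends removed. EIF1AD, named for a domain it shares with eIF1A and not counted here among the initiation complexes, had 41.3, 44 and 44.4 CPM in C and 80.4, 81 and 85.7 in D. Its 2 groups were tight, and its log2 fold change was 0.93 ± 0.10 (adjusted p = 0.00011).

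The balance within families was read as the log2 ratio of the CPM of 2 genes in the same library, which scaling of libraries leaves as it is. A length trend does not cancel in such a ratio where the genes differ in length, and no ratio was computed with length trends removed. For 8 pairs, D was compared with C by an exact 2-sided permutation test over the libraries, whose smallest possible p with 3 against 3 is 0.1, so no pair could pass 0.05. For 7 pairs the exact p was 0.1 (0.114 after Benjamini-Hochberg adjustment over the 8 pairs). EIF4EBP1 over EIF4EBP2 differed most, with log2 ratios of 2.18, 2.39 and 1.86 in C and 3.44, 3.05 and 4.05 in D. The D ratios were all above the C ratios, and the means differed by 1.37. These genes are 827 and 7491 bp long, and part of the difference may follow the length trends. With those trends removed, the log2 fold changes of the genes themselves were 0.56 for EIF4EBP1 and −0.38 for EIF4EBP2. The log2 ratio of EIF4E to EIF4EBP1 was −2.82 ± 0.107 in C and −3.88 ± 0.288 in D (SD, n = 3), a difference of −1.07. EIF1 over EIF1B had 3.16 ± 0.086 in C and 3.88 ± 0.018 in D, a difference of 0.72. The difference was 0.51 for EIF4A1 over EIF4A2, whose log2 ratio was 1.90 ± 0.040 in C and 2.40 ± 0.085 in D.

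The EIF5A over EIF5A2 ratio was lower in D by 0.68 on the log2 scale, with 5.53 ± 0.161 in C and 4.84 ± 0.307 in D. Among the scaffolds, EIF4G1 over EIF4G3 differed by 0.41 and EIF4G1 over EIF4G2 by −0.29, and the latter was −0.16 without D replicate 3. For EIF4E over EIF4E2 the difference was −0.20 and the groups overlapped (exact permutation p = 0.2), and it was −0.08 without D replicate 1.

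**Figure D4:**
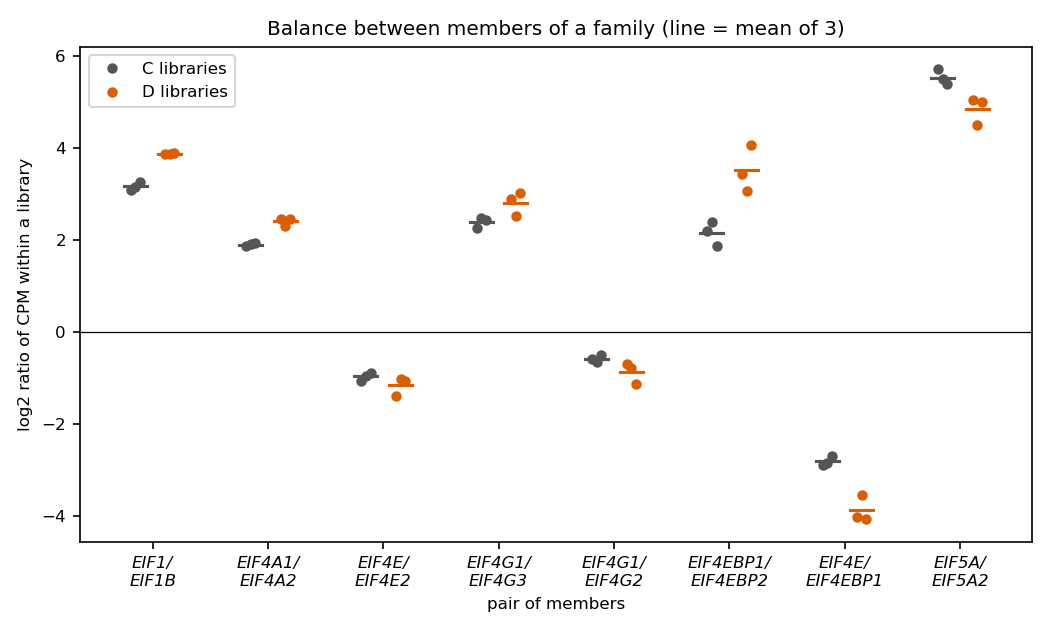
Log2 ratio of the CPM of 2 members within each library (vertical axis) for 8 pairs; points are libraries of C (grey) and D (orange), lines are means of 3. The EIF4EBP1/EIF4EBP2 pair has the widest gap, 1.37, and the EIF4E/EIF4E2 points overlap. Length trends were not removed from these ratios.

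Levels per unit length spanned a wide range. In C the most abundant members were EIF4A1, EIF3D (381 ± 18.1 FPKM in C and 476 ± 30.7 in D) and EIF3K (315 ± 16.5 FPKM in C and 438 ± 85.7 in D), and the least abundant was EIF4E3 (0.535 ± 0.0412 FPKM in C and 0.264 ± 0.0309 in D). EIF3K and EIF4EBP1 (294 ± 23.7 FPKM in C) were neighbours in this order and differed by less than the SD of EIF4EBP1. EIF4E, with 11.3 ± 0.401 FPKM in C and 8.48 ± 0.929 in D, was the 42nd of 53 in C and the 43rd in D, whereas its inhibitor gene EIF4EBP1 was the 4th in C and the 3rd in D. EIF5 moved from 33rd to 19th (23.7 ± 5.98 FPKM in C and 79.1 ± 4.88 in D), EIF1 from 11th to 5th (196 ± 17 FPKM in C and 427 ± 73.8 in D), EIF2AK1 from 20th to 29th and EIF2AK4 from 26th to 35th. Each gene has 1 length in the files, which may include exons that these cells use little, so an order of levels between genes depends on it.

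**Figure D5:**
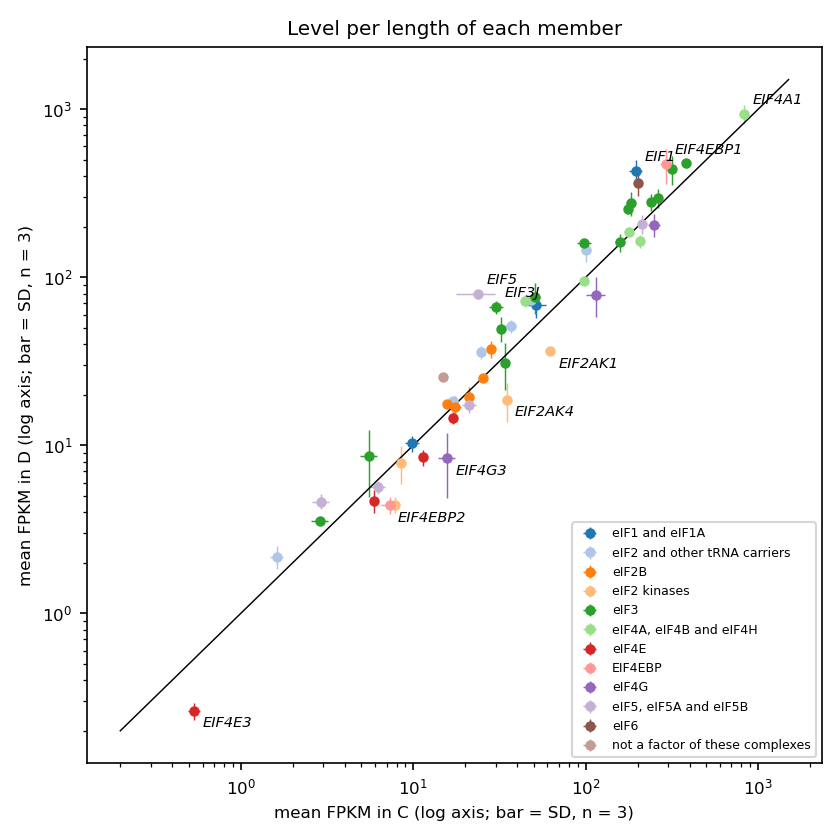
Mean FPKM in D against mean FPKM in C for 53 members (both axes logarithmic; bars are SD over 3 libraries; the line marks equal values), coloured by complex. EIF5, EIF1 and EIF3J lie above the line, and EIF2AK1, EIF2AK4 and EIF4G3 lie below it.

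The members differed in how evenly the D libraries behaved. Of the 26 members that rose, D replicate 3 was the highest D library for 23 and D replicate 2 the lowest for 18. For the 6 that fell, D replicate 3 was the lowest for 5 and D replicate 2 the highest for 6. These orders were not counted over all tested genes, so they are not shown to be particular to the members. The median coefficient of variation over the members was 5.88% in C and 12.7% in D, and 43 of 53 members varied more in D. Median lengths were 2991.5 bp for the members that rose and 6514.5 bp for those that fell. Of 19 members of up to 3000 bp, 13 rose and 0 fell, beside 33.7% and 21.1% of all tested genes of that length. Of 25 members between 3000 and 6000 bp, 11 rose and 3 fell, beside 27.9% and 30.8%. Of 9 members over 6000 bp, 2 rose and 3 fell, beside 17% and 31.3%. With length trends removed, 15 of the short members rose and 1 fell, beside 34.5% and 31.1% of all genes of that length. For the middle class these counts were 13 and 4, beside 33.7% and 31.3%, and for the long members 3 and 3, close to the shares of all long genes, 29.8% and 28.3%.

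Other genes of translation were read from lists written with earlier results of these data known. Of 24 partners of initiation, cap-binding and poly(A)-binding genes, 7 rose and 4 fell (median 0.13). These are shares of 29.2% and 16.7%, beside 26.8% and 27.7% of all genes tested. Library size alone left 1 rise and 6 falls, and length correction gave 11 rises and 3 falls. Leaving out C replicates 1, 2 and 3 in turn left 1, 2 and 3 rises, and there were 2, 1 and 2 falls without C replicate 1, C replicate 2 and D replicate 1. The re-initiation factor gene DENR had 45.7, 50.6 and 47.1 CPM in C and 81, 79.1 and 97.1 in D and rose (0.84 ± 0.12, adjusted p = 0.00044). ANGEL1, whose protein binds eIF4E, had 38, 32.4 and 38.9 CPM in C and 14.6, 15.6 and 11 in D and fell (−1.40 ± 0.16, adjusted p = 0.00015). NCBP2, of the nuclear cap-binding complex, rose (0.43 ± 0.12), and BZW2, an eIF5 mimic, fell (−0.40 ± 0.11). The NCBP2 call was lost without C replicate 1 (0.41) or C replicate 3 (0.40) and with library size only (0.27), and that of BZW2 without C replicate 2 (−0.37) or D replicate 1 (−0.37). With the replicate number as a block both calls were lost (0.42 for NCBP2 and −0.41 for BZW2).

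Of 16 genes of elongation, termination and hypusine synthesis, 9 rose and 1 fell (median 0.57), and library size alone gave 8 rises and 3 falls. The shares were 56.2% and 6.25%, beside 26.8% and 27.7% of all genes tested. Without D replicate 3 there were 2 falls. The ribosome rescue factor gene PELO had 33.9, 35.6 and 36.9 CPM in C and 72.5, 71.4 and 86.4 in D and rose (1.11 ± 0.11, adjusted p = 0.0001). ETF1, the release factor, rose 1.82-fold. EEF2K, the kinase that inhibits elongation factor eEF2, had 74.3, 69.9 and 74.7 CPM in C and 36.6, 42.8 and 28.2 in D and fell (−1.02 ± 0.15, adjusted p = 0.00065). Of 18 tested genes of mTORC1 and its brakes, 7 rose and 5 fell (median 0.12). These are shares of 38.9% and 27.8%, and the share of falls is close to the 27.7% of all genes tested. RRAGC, a GTPase that recruits mTORC1 to lysosomes, had 34.1, 36.4 and 32 CPM in C and 109, 119.8 and 120.0 in D and rose (1.77 ± 0.10, adjusted p = 1.0e-05), and SESN2, a brake, rose 7.06-fold. The partner GTPase RRAGA (−0.61 ± 0.11, adjusted p = 0.0022) and SESN3 (−1.91 ± 0.29, adjusted p = 0.00069) fell. Without C replicate 1 or C replicate 2, 2 genes of this list fell, and without D replicate 1, 3 fell. Of 9 mitochondrial translation factor genes, 4 rose (44.4%) and 0 fell (median 0.27), beside 26.8% and 27.7% of all genes tested. Library size alone gave 3 rises and 1 fall. The release factor genes MTRF1L (0.53 ± 0.11) and MTRF1 (0.51 ± 0.12) were among the rises, and without C replicate 1 or C replicate 3 there were 2 rises.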

How the data were processed

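The deposited tables hold whole-number counts for each gene symbol, made by the authors without normalization, and the authors' FPKM for the same genes. RNA was isolated on columns and a SMARTER kit was used for the libraries, per the labels' protocols. The labels name the mouse and the submitters' processing notes name the builds GRCm38 and mm10, whereas the symbols follow human naming, so no coordinates or sequences are given. Which aligner, counter and strandedness the authors used was not given in the sources used here. Gene lengths were derived from counts and FPKM; they matched between libraries within 0.001 of their size for 17144 of 17144 genes.

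Groups C and D were taken from the sample titles. edgeR 4.0.16 under R 4.3.3 was used for the count tests: filterByExpr (12682 genes passed), TMM factors, the 2-sided quasi-likelihood F test with group as the only term, and Benjamini-Hochberg adjustment over all tested genes, called under 0.05. The standard error was the log2 fold change divided by the square root of F. The procedure was tested on simulated data with the same spread in both groups. That test therefore does not cover the wider spread of D seen here.

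The members and lists were chosen with earlier results of these data known. Every member could be named. Full values were given for kinases and EIF4EBP genes, for up to 3 called members per direction and complex by lowest p (with none called, the 1 with the smallest p), and for up to 2 called genes per direction from each other list. Values of other members, and of NCK2, DELE1 and GCN1, were added for completeness. Alternatives were DESeq2 1.42.0, RLE factors, library size only, no low-count filter, at least 1 CPM in 3 libraries, the replicate number as a block, a lowess fit on length (span 0.4), and each library left out. Ratios used log2(CPM + 0.5), or log2(FPKM + 0.1) as the alternative. A floor of 3 counts is 0.146 to 0.163 CPM and covers counting error only.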

Additional observations from a re-analysis of the deposited data

How the results depend on the processing

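Over 53 members and 13 alternatives (689 values), 619 kept direction and side of the threshold, 27 lost the call, 24 gained one and 19 changed sign. The sign changes were all in members without a call in the reported analysis. The sign changed with library size only in EIF2B2 (−0.10), EIF2B4 (−0.033), EIF2B5 (−0.006), EIF2AK2 (−0.10), EIF3A (−0.14), EIF4H (−0.042), EIF5A (−0.028) and EIF5AL1 (−0.14), and without the low-count filter in EIF3A (−0.006) and EIF5AL1 (−0.003). It changed with the replicate block in EIF3A (−0.032). It changed without D replicate 3 in EIF2B2, EIF2B4 and EIF5AL1, without D replicate 2 in EIF2AK2, EIF3A and EIF4E2, and without C replicate 1 in EIF3A and EIF5AL1. With one library left out, EIF2B2 ranged from −0.08 to 0.18, EIF2B4 from −0.014 to 0.29, EIF2AK2 from −0.104 to 0.209, EIF3A from −0.191 to 0.203, EIF4E2 from −0.118 to 0.047 and EIF5AL1 from −0.072 to 0.123. The cause was not tested. The lowest count of any member in a library was 46 (EIF4E3).

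With one library left out, 21 to 30 members rose and 5 to 8 fell. The counts of rises ranged from 1 to 2 in eIF1 and eIF1A, 1 to 2 in eIF2B, 8 to 12 in eIF3 and 1 to 2 in eIF4A, eIF4B and eIF4H, with 0 to 1 falls there. Falls ranged from 1 to 2 in eIF4E and 0 to 2 in eIF4G. In the lists, 1 to 9 initiation partners rose and 1 to 4 fell, 1 to 2 elongation genes fell, 2 to 5 mTORC1 genes fell and 2 to 5 mitochondrial factors rose.

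No label says that equal replicate numbers pair the libraries. The correlation of deviations from the group mean was 0.008, −0.397 and −0.365 for C and D libraries of number 1, 2 and 3. It was 0.423 for C replicate 2 with D replicate 3 and 0.345 for C replicate 3 with D replicate 2. Deviations within 3 libraries depend on one another and hold the length trends, so these values cannot settle whether libraries were paired. With the replicate block, 2694 genes rose and 2977 fell, and 28 of the 32 member calls were kept. With it, 1 eIF1 gene, 1 eIF2B gene and 1 initiation partner rose, and 1 initiation partner and 3 mTORC1 genes fell. For EIF4EBP1 over EIF4EBP2 the block gave 1.37 (exact sign-flip p = 0.25, the smallest possible).

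With library size only, 1 eIF2B gene rose, 1 gene fell in the eIF4A group, 2 in eIF4E, 2 in eIF4G, 6 initiation partners (and 1 rose), 3 elongation genes and 1 mitochondrial factor. Without the low-count filter 1 eIF2B gene rose. DESeq2 called 3 higher in the eIF4A group. With length trends removed, 1 kinase gene rose, 3 rose and 1 fell in the eIF4A group, 2 fell in eIF4E, 11 initiation partners rose and 2 elongation genes fell.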
